A study of Sus scrofa with 4 samples.

Results

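Swine MHC class I presentation was followed through 10 genes: the class I heavy chains SLA-1, SLA-2, SLA-3, SLA-6, SLA-7 and SLA-8, the light chain B2M, the peptide transporter subunits TAP1 and TAP2, and tapasin (TAPBP). A probe belonged to a gene when the gene name printed in the scanner files equalled its symbol. By this rule 8 of the 10 genes were on the array, with 22 probes, among 34853 gene names in all. SLA-2 and TAPBP had no probe under their own names. The porcine intramuscular preadipocyte (PIP) line comes from the longissimus thoracis muscle of a Duroc pig and was used between passages 26 and 35. PIP cells without differentiation gave the first array, and porcine mature adipocytes (pMA) gave the second. The pMA were 4 days post-confluent and had been kept for 4 days in medium with 50 ng/mL insulin, 0.25 μM dexamethasone, 2 mM octanoate and 200 μM oleate. The other arrays came from pMA exposed for 12 h to 100 μM serotonin (5-HT) or to 2.5 μg/mL TNF-α. All 4 conditions derive from 1 cell line, RNA was pooled within each condition, and each condition has 1 array, so differences are given as sizes without a test.

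MHC class I molecules display peptides of cytosolic proteins to CD8 T cells and natural killer cells. Proteins are cut by the proteasome, the peptides are pumped into the endoplasmic reticulum by the TAP1 and TAP2 heterodimer, tapasin holds an empty heavy chain beside the transporter, and the loaded heavy chain leaves together with B2M. SLA-1, SLA-2 and SLA-3 are the classical, highly polymorphic heavy chains of the pig, and SLA-6, SLA-7 and SLA-8 are the non-classical ones with little polymorphism. The SLA alleles of the animal behind the cell line are not given in the sources used here, so mismatches between the probes and its transcripts are unknown. Interferons and TNF-α are known inducers of the classical heavy chains, TAP1 and the immunoproteasome in many cell types. In the RefSeq annotation of Sscrofa11.1, SLA-1, SLA-5, SLA-2, SLA-3 and SLA-4 lie in 1 cluster, SLA-8, SLA-7 and SLA-6 follow each other beside MIC-1, and TAP2, PSMB8, TAP1 and PSMB9 are direct neighbours. The same annotation holds 2 entries named B2M, separated by 1 gene.

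The heavy chains resemble each other so closely that the probe sequences decide what a value stands for. Among the 9 probes named SLA-1 or SLA-3, 5 list more than 1 RefSeq transcript in their annotation. The SLA-2 transcript is listed by 3 of these 9 probes and a transcript of SLA-5 by 1, so SLA-2 was measured only together with other heavy chains. Among the 231 pairs of member probes, the only pair across genes with at least 80% identity over 40 or more bases was that of SLA-1 probe A_72_P440391 and SLA-3 probe A_72_P440386. They overlap by 59 bases with 4 mismatches, an identity of 93.2%. The pair is printed because it shows how little separates the genes on this array, with the differing bases in capitals:

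SLA-1 A_72_P440391: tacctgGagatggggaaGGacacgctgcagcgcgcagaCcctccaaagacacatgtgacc

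SLA-3 A_72_P440386: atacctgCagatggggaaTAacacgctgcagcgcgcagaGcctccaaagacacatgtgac

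The SLA-3 probe that stands for the gene in the counts, A_72_P515992, had a near copy filed under another name. A_72_P609764, annotated to an SLA-3 clone, matches it over 57 bases with 2 mismatches. A stretch of 30 bases around the first mismatch, in capitals, is given for each:

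SLA-3 A_72_P515992, bases 15 to 44: cacagttccaagggtCggtttagaaatagg

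SLA-3 clone A_72_P609764, bases 12 to 41: cacagttccaagggtAggtttagaaatagg

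No probe of the non-classical gene SLA-8 formed such a pair with an SLA-1 or SLA-3 probe, although the probes lie on different stretches and were not compared with the transcripts of other heavy chains. Of the 4 SLA-8 probes, A_72_P541846 and A_72_P734731 overlap by 58 bases with 1 mismatch, in capitals, and so read nearly the same stretch of the transcript, whereas A_72_P070231 lies elsewhere:

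SLA-8 A_72_P541846: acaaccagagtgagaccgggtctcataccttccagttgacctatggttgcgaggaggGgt

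SLA-8 A_72_P734731: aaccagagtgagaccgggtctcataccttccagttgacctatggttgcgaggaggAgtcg

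SLA-8 A_72_P070231: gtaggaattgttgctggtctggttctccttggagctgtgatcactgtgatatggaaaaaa

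For B2M and TAP1, whose results are described further on, no probe paired with another in this way, and 1 of each is shown to identify the transcript measured:

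B2M A_72_P709927: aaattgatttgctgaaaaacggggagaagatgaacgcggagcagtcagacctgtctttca

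TAP1 A_72_P223837: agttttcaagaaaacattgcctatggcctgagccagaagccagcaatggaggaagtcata

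A level is the log2 intensity of a probe minus the 75th percentile of its array, and a log2 ratio is the difference of the levels of a probe on 2 arrays. Levels of different probes are not compared, except in summed levels of cell type markers, where the brightest probes weigh most. The 75th percentile was 515 in PIP cells, 479 in pMA, 566 after serotonin and 559 after TNF-α, and 56.5% to 66.1% of the probes were well above background. No spot was saturated. Each member probe has 1 spot, and for 23 probes of the array with repeated spots the standard deviation between spots gave a technical error of 0.22 for a log2 ratio, which leaves out all biological spread. After the scaling, the median log2 ratio of all gene names was 0.12 for pMA against PIP cells and 0.01 for each stimulation, and the E1A spike-in controls, in their brighter 4 probes, lay at -0.44, -0.08 and -0.08. Of 9 adipocyte markers with a ratio of pMA to PIP cells, 5 rose at least 2-fold by their brightest probe, against 9.94% of all gene names. CD36 had a log2 ratio of 5.17 (1.19 to 5.17 over its 4 probes) and CIDEC 3.88 (0.75 for its other probe). PLIN2 had 3.14, FABP4 3.08 as a lower bound and PPARG 1.07. PLIN1 stayed at background on every array and ADIPOQ, by its brightest probe, at background on all 3 arrays of mature cells.

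After TNF-α, transcripts of the classical heavy chains and TAP1 had the highest ratios among the members, whereas no member gene differed 2-fold in differentiation or after serotonin. The 3 comparisons share the pMA array. Among the 8 member genes with a ratio of TNF-α to unstimulated pMA, represented by their brightest probe, 1 rose at least 2-fold, SLA-3, against 2.21% of all gene names higher and 3.56% past 2-fold in either direction (1.34% lower). No member fell that far. The ratio of 7 of the 8 lay above 0, against 50.7% of all gene names. That of SLA-7 is a lower bound, which was given only if above 0, so its sign was fixed by the rule. The median of the 8 was 0.15 on the log2 scale against 0.01 for all gene names. In pMA against PIP cells none of 7 members differed 2-fold, against 13.5% of gene names (9.94% higher and 3.56% lower). The member median was -0.33 and 6 of 7 ratios lay below 0, whereas 58.1% of all gene names lay above 0. After serotonin none of 7 members differed 2-fold, against 6.82% of gene names (2.08% higher and 4.73% lower), and the member median was -0.05. In bulk RNA, fewer cells with a transcript and less of it in each cell cannot be told apart.

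**Figure D1:**
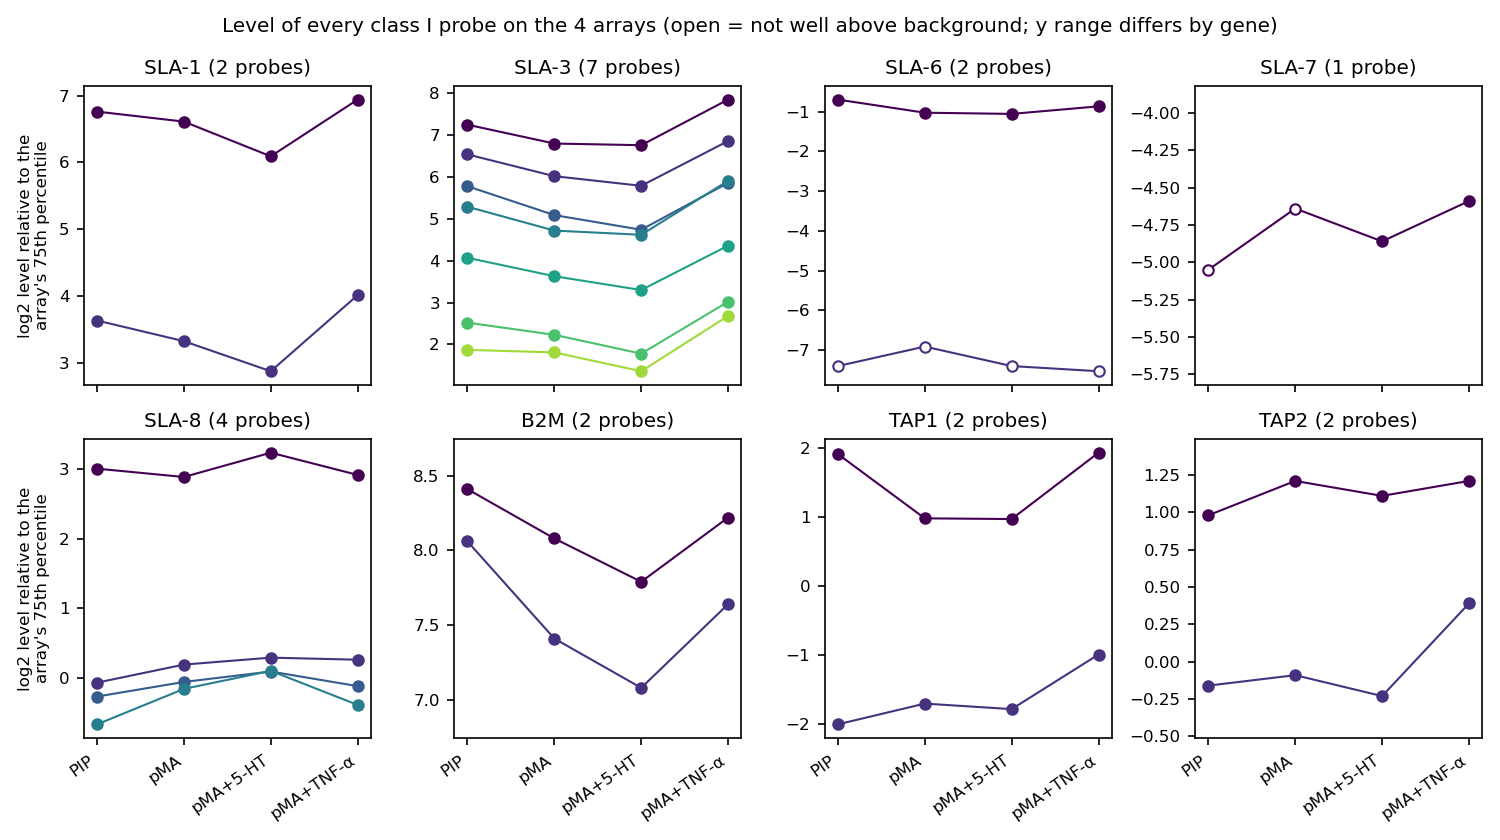
Level of each member probe, as log2 intensity relative to the 75th percentile of the array, on the arrays of PIP cells, pMA, pMA with serotonin and pMA with TNF-α. Each line is 1 probe, filled points are well above background and open points are not, and the y range differs between genes. All 9 lines of SLA-1 and SLA-3 are lowest after serotonin and highest after TNF-α, and those of SLA-8 are not.

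SLA-3, a classical heavy chain, was read by 7 probes, all well above background on every array. Its brightest probe, A_72_P515992, had levels of 7.25 in PIP cells, 6.80 in pMA, 6.76 after serotonin and 7.85 after TNF-α. The TNF-α array was highest, PIP cells came next, and pMA and serotonin lay close together. The log2 ratio of TNF-α to pMA was 1.05, a 2.07-fold rise, and only 1.98% of gene names had a ratio at least as high.

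A_72_P625308, which overlaps A_72_P682906 by 42 identical bases, was the other SLA-3 probe past 2-fold. Its levels were 5.29 in PIP cells, 4.72 in pMA, 4.62 after serotonin and 5.91 after TNF-α, a log2 ratio of 1.19 or 2.28-fold. Its overlapping neighbour A_72_P682906 had 6.54, 6.02, 5.79 and 6.86 in the same order, with a log2 ratio of 0.83. Readings of overlapping stretches therefore fell on either side of 2-fold. The other 4 SLA-3 probes had log2 ratios from 0.73 to 0.87 after TNF-α. Where the median over the probes represented the gene, the log2 ratio of SLA-3 came to 0.83, and with arrays scaled to their medians it came to 0.97, so that no member passed 2-fold in either case.

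SLA-1, another classical heavy chain, had 2 probes. A_72_P035616 had levels of 6.76 in PIP cells, 6.61 in pMA, 6.09 after serotonin and 6.94 after TNF-α. Its log2 ratio was -0.16 in differentiation, -0.52 after serotonin and 0.33 after TNF-α. The serotonin array was the low one here. A_72_P440391, the probe that also lists SLA-2, had 3.63, 3.32, 2.87 and 4.01, with log2 ratios of -0.31, -0.45 and 0.70. Its SLA-3 counterpart A_72_P440386 had 2.52, 2.23, 1.78 and 3.02, with log2 ratios of -0.29, -0.45 and 0.79. The ratios of this near-identical pair differed by less than the technical error in each comparison.

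Over the 9 probes of SLA-1 and SLA-3 the 4 arrays fell in 1 order, with TNF-α highest, then PIP cells, pMA and serotonin. This order was found in 2.44% of the 23031 probes well above background on all arrays. The 9 probes share targets and are not replicates, and the order of pMA and PIP cells depended on the scaling, as did that of pMA and serotonin for A_72_P515992, which was at 0.18 after serotonin with quantile normalization and at 0.03 with spike-in scaling. The log2 ratios lay between -0.69 and -0.06 in differentiation (median -0.44), between -0.52 and -0.05 after serotonin (median -0.35) and between 0.33 and 1.19 after TNF-α (median 0.79). Some neighbours in this order differed by less than the technical error: pMA and serotonin by 0.05 for A_72_P515992, PIP cells and TNF-α by 0.08 for A_72_P649741, and PIP cells and pMA by 0.06 for A_72_P517623. After scaling to the bright spike-in controls, 5 of the 9 probes lay above 0 in differentiation and 4 below, and all 9 remained above 0 after TNF-α.

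**Figure D2:**
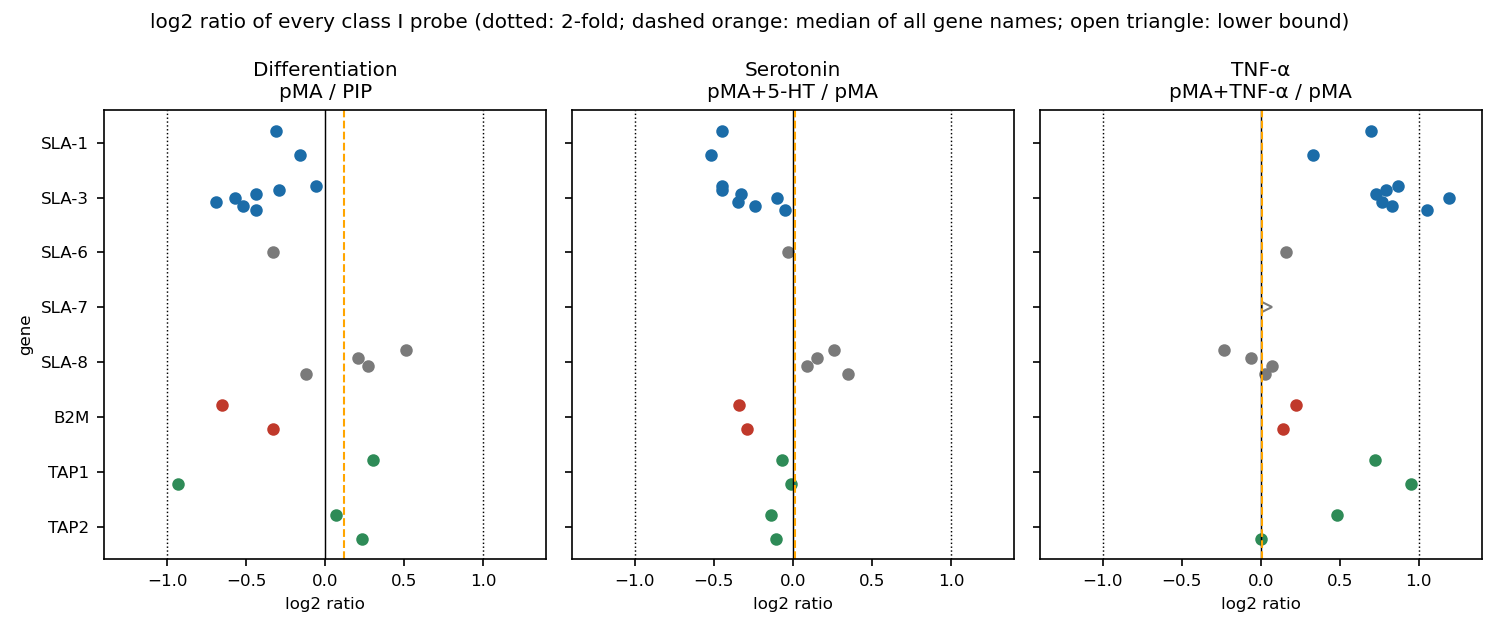
log2 ratio of each member probe with a ratio in pMA against PIP cells, serotonin against pMA and TNF-α against pMA, by gene. Dotted lines mark 2-fold, the dashed line is the median of all gene names, and the open triangle is a lower bound. After TNF-α the 9 points of SLA-1 and SLA-3 lie between 0.33 and 1.19, and the 4 of SLA-8 between -0.23 and 0.07.

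Of the non-classical heavy chains, SLA-8 lay outside these ranges after serotonin and after TNF-α. SLA-8 had 4 probes well above background on every array. A_72_P070231 had levels of 3.01 in PIP cells, 2.89 in pMA, 3.24 after serotonin and 2.92 after TNF-α, so that the serotonin array was the high one. Its log2 ratio was -0.12 in differentiation, 0.35 after serotonin and 0.03 after TNF-α. A_72_P541846 had -0.07, 0.19, 0.29 and 0.26, and its near copy A_72_P734731 had -0.27, -0.06, 0.09 and -0.12. A_72_P517672 had -0.67, -0.16, 0.10 and -0.39. All 4 SLA-8 probes were highest after serotonin, with log2 ratios of 0.09 to 0.35 there and of -0.23 to 0.07 after TNF-α. The lead of serotonin over the next array was below the technical error for A_72_P541846, at 0.02, and for A_72_P734731, at 0.15. None of these values reached 2-fold, and in differentiation 3 probes lay above 0 and the brightest below it.

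SLA-6 was read by A_72_P237292 at -0.70 in PIP cells, -1.03 in pMA, -1.06 after serotonin and -0.87 after TNF-α. The 4 levels spanned less than the difference of a 2-fold change, with log2 ratios of -0.33, -0.03 and 0.16. The signs were those of the SLA-1 and SLA-3 probes, and the serotonin and TNF-α values lay below the technical error. The other SLA-6 probe, A_72_P260597, was not well above background on any array. SLA-7 had 1 probe near the limit of detection, with levels of -5.05 in PIP cells, -4.64 in pMA, -4.86 after serotonin and -4.59 after TNF-α. It was well above background only on the arrays with serotonin and TNF-α. After TNF-α it was at least 1.03-fold higher than in pMA, a bound taken against the faintest signal well above background on the pMA array, and the other comparisons give no ratio.

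B2M, the light chain common to all class I molecules, differed less than the classical heavy chains after TNF-α. A_72_P441589 had levels of 8.41 in PIP cells, 8.08 in pMA, 7.79 after serotonin and 8.22 after TNF-α. A_72_P709927 had 8.06, 7.41, 7.08 and 7.64. In both, PIP cells were highest and the serotonin array lowest. The log2 ratios were -0.33 and -0.65 in differentiation, -0.29 and -0.34 after serotonin and 0.14 and 0.22 after TNF-α. Of the TNF-α values the first lies below the technical error and the second at it. A further 8 probes filed under 2 Ensembl transcript names are described as B2M. They ranged from -0.62 to -0.26 in differentiation and from -0.63 to -0.29 with serotonin, and TNF-α gave 0.10 to 0.26, in the same order of the 4 arrays for all 8, an order held by 7.11% of probes. In differentiation, scaling to the bright spike-in controls moved the 2 B2M probes to -0.21 and 0.11. After serotonin, quantile normalization moved them to -0.09 and -0.08, below the technical error. The brightest 1% of all probes, 437 in number, had median log2 ratios of 0.09 in differentiation, -0.16 after serotonin and -0.11 after TNF-α.

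TAP1 had 2 probes whose values disagreed in differentiation. A_72_P223837 had levels of 1.91 in PIP cells, 0.98 in pMA, 0.97 after serotonin and 1.93 after TNF-α. The PIP and TNF-α arrays were alike, and so were pMA and serotonin. Its log2 ratio was -0.93 in differentiation, a value that 4.16% of gene names reached or went below, -0.01 after serotonin and 0.95 after TNF-α, which 2.45% of gene names reached or exceeded. A_72_P172206 had -2.00, -1.70, -1.78 and -0.99, with log2 ratios of 0.30, -0.07 and 0.72. Both probes were highest after TNF-α, and neither passed 2-fold there or in differentiation. Scaling decided this for the brighter probe, whose ratio in differentiation was -1.28 with arrays scaled to their medians and whose ratio after TNF-α was 1.03 with scaling to the spike-in controls.

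TAP2, the partner of TAP1 in the transporter, had levels of 0.98 in PIP cells, 1.21 in pMA, 1.11 after serotonin and 1.21 after TNF-α for A_72_P013781. The pMA and TNF-α arrays did not differ at this precision. A_72_P275849 had -0.16, -0.09, -0.23 and 0.39, and a log2 ratio of 0.48 after TNF-α. The probes therefore gave different values for the same stimulus, and no TAP2 probe reached 2-fold in any comparison.

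Other probes annotated as class I heavy chains, outside the naming rule, numbered 8, of which 6 had ratios. After TNF-α these 6 lay between 0.53 and 1.12 (median 0.76). The near copy A_72_P609764 of the brightest SLA-3 probe had log2 ratios of -0.46, 0.00 and 1.12, beside -0.44, -0.05 and 1.05 for the SLA-3 probe itself, and it was the only 1 of the 6 past 2-fold. SLA-5, a heavy chain gene of the classical cluster, had ratios of 0.77 and 0.98 for its 2 probes after TNF-α and of -0.63 and 0.17 in differentiation.

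The wider class I and class I-like list had 6 of its 14 genes on the array. Of the 5 with a ratio, none differed 2-fold in any comparison by its brightest probe, against 13.5%, 6.82% and 3.56% of all gene names. With scaling to the median, 1 gene fell 2-fold in differentiation and 1 rose after serotonin, and some other settings also had 1 past 2-fold. The median was -0.62 in differentiation, 0.05 after serotonin and 0.26 after TNF-α. FCGRT, the neonatal Fc receptor, which also pairs with B2M, had levels of 6.76, 6.14, 6.19 and 6.36 and a log2 ratio of -0.62 in differentiation. MIC-2, a stress-inducible ligand of natural killer cells, had 0.07, -0.88, -1.16 and -0.36, with ratios of -0.95 and 0.52 in differentiation and after TNF-α. ULBP1, a ligand of the same receptor, had -2.69, -2.30, -1.33 and -2.04, so that it was highest after serotonin with a ratio of 0.98. Its other probe had a ratio of 1.05 there.

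The immunoproteasome and its activator, which cut the peptides that class I displays, had a higher median ratio than the members after TNF-α and a lower one in differentiation. All 6 genes of the list had a ratio in each comparison. In differentiation 4 of 6 fell at least 2-fold, against 3.56% of all gene names. The median was -1.15 on the log2 scale against 0.12 for all gene names. After TNF-α 2 of 6 rose, against 2.21% of all gene names, with a median of 0.88. After scaling to the spike-in controls 1 of 6 fell in differentiation. PSMB8, the catalytic subunit encoded between TAP2 and TAP1, had levels of 1.98 in PIP cells, 0.04 in pMA, -0.14 after serotonin and 1.09 after TNF-α. It fell 3.83-fold in differentiation and rose 2.06-fold after TNF-α, and its 3 probes lay between 1.03 and 1.09 after TNF-α. PSMB9, on the other side of TAP1, had 3.96, 2.53, 2.15 and 3.79, a 2.70-fold fall and a 2.39-fold rise. After median scaling or normexp background correction 1 of 6 genes rose after TNF-α, and after scaling to the spike-in controls 3 did. The serotonin median was -0.13, with no gene past 2-fold, against 6.82% of all gene names.

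PSMB10, the third catalytic subunit, had a log2 ratio of -0.64 in differentiation and 0.82 after TNF-α. PSME1 and PSME2, which form the activator cap, fell 2.23-fold and 2.21-fold in differentiation and had ratios of 0.63 and 0.93 after TNF-α. PSME3, the nuclear activator, had -0.54 and 0.14.

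Peptide loading and trimming factors had 4 of 11 genes on the array, and medians of -0.27, -0.09 and 0.02. HSPA5, the endoplasmic reticulum chaperone BiP, was the 1 gene past 2-fold, with a 4.00-fold fall in differentiation, where 3.56% of all gene names fell 2-fold. Its levels were 3.91 in PIP cells, 1.91 in pMA, 1.60 after serotonin and 2.57 after TNF-α. Calreticulin (CALR) and calnexin (CANX), which fold the heavy chain, had log2 ratios of 0.04 and 0.01 after TNF-α.

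**Figure D3:**
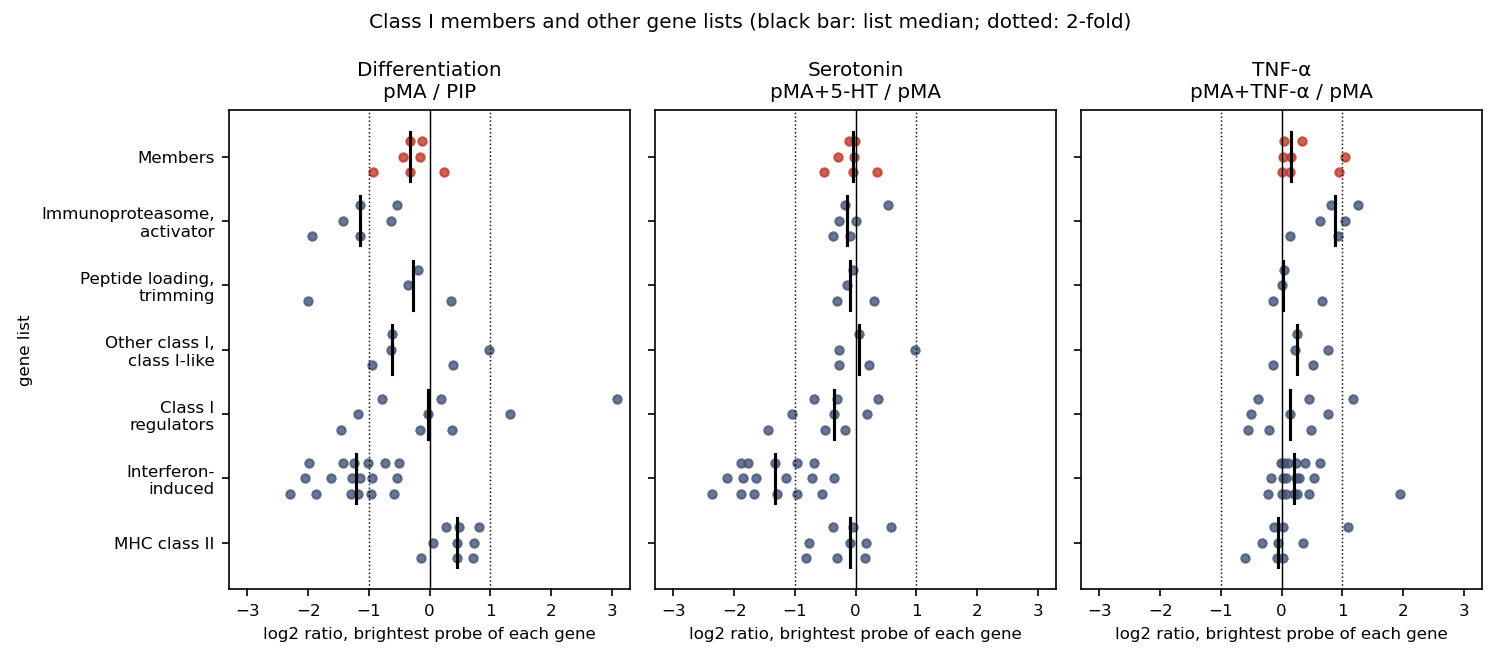
log2 ratio of the brightest probe of each gene in the members and in 6 gene lists, for pMA against PIP cells, serotonin against pMA and TNF-α against pMA. Points are genes, a few of them lower bounds, black bars are medians and dotted lines mark 2-fold. The interferon-induced genes have a median of -1.20 in differentiation and -1.33 after serotonin, where the members have -0.33 and -0.05.

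The transcription factors known to act on class I promoters moved in different directions. Of 9 measured genes among 15 listed, 2 rose and 2 fell at least 2-fold in differentiation, 2 fell after serotonin and 1 rose after TNF-α. Of all gene names, 9.94% rose and 3.56% fell in differentiation, 4.73% fell after serotonin and 2.21% rose after TNF-α. NLRC5, the class I transactivator, had levels of -2.28 in PIP cells, -0.96 in pMA, -1.12 after serotonin and -1.35 after TNF-α. It rose 2.50-fold in differentiation, and its log2 ratio with TNF-α was -0.39, signs opposite to those of SLA-3 and TAP1 by their brightest probes. NFKB1, the p50 subunit of NF-kB, had -0.13, -0.27, 0.09 and 0.90 and rose 2.25-fold after TNF-α. NFKB2 rose 8.43-fold in differentiation and fell 2.71-fold after serotonin by its brighter probe, while its other probe had a ratio of 0.25 after serotonin. After TNF-α its brighter probe had -0.56 and its other probe 0.25, and RELA, the p65 subunit, had -0.50 by its brightest probe and up to 0.16 by its others. IRF1 had 1.96, 1.17, 0.66 and 1.93, which is highest in PIP cells and after TNF-α, and its log2 ratio with TNF-α was 0.76. IRF2 fell 2.26-fold in differentiation by its brighter probe, with 0.85 for the other.

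Interferon-induced genes were described beside the members because interferons induce both. Of 18 with a ratio in differentiation 12 fell at least 2-fold, against 3.56% of all gene names. After serotonin 11 of 17 fell, against 4.73%, and after TNF-α 1 of 19 rose, against 2.21%. The medians of the list were -1.20, -1.33 and 0.21. RSAD2, the antiviral protein viperin, had levels of 4.29 in PIP cells, 2.00 in pMA, -0.36 after serotonin and 2.23 after TNF-α, a 4.89-fold fall and then a 5.13-fold fall. Its other probe had a log2 ratio of -1.28 after serotonin. ISG15, a ubiquitin-like modifier, had 8.72, 7.44, 5.56 and 7.46, a 2.44-fold and a 3.67-fold fall. Both were lowest after serotonin, with pMA and TNF-α close to each other. CXCL10, a chemokine that draws T cells, had 0.66, -0.49, -1.63 and 1.46 and rose 3.86-fold after TNF-α. After TNF-α SLA-3 and TAP1 had ratios of 1.05 and 0.95, where the 19 genes of the list ranged from -0.23 for IFIT3 to 1.95 for CXCL10. After serotonin SLA-1 had -0.52, SLA-3 -0.05 and TAP1 -0.01. The 17 genes of the list ranged there from -2.36 for RSAD2 to -0.36 for IFIH1. After scaling to the spike-in controls 5 of 18 interferon-induced genes fell 2-fold in differentiation, with all 18 below 0.

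Leukocytes carry much class I, and their markers were therefore read on the same arrays. Of 12 markers 8 were on the array. CD163 and CD4 were not well above background on any array, and CD8A was so only after TNF-α. The summed level of the 8, on the linear scale where the 75th percentile is 1, was 1.70 in PIP cells, 2.28 in pMA, 2.13 after serotonin and 3.25 after TNF-α. CD14, which adipocytes can also express, had levels of 0.44, 0.90, 0.88 and 1.56 and made up most of that sum, the other 7 markers adding 0.343 in PIP cells, 0.421 in pMA, 0.297 after serotonin and 0.306 after TNF-α. AIF1, a macrophage marker well above background on every array, had -2.04, -1.97, -2.93 and -2.89, with log2 ratios of -0.96 after serotonin and -0.91 after TNF-α. Of 5 endothelial markers, CDH5 and TEK were not well above background on any array, and PECAM1 and KDR were so on every array. The summed level was 1.59, 1.16, 0.483 and 1.16, most of it from PECAM1, with levels of 0.42, -0.20, -1.66 and -0.14. PECAM1 fell 2.75-fold after serotonin by its brightest probe, where 4.73% of all gene names fell 2-fold, and its 4 probes lay between -1.46 and -0.44. Of 8 preadipocyte or fibroblast markers the array held 6, and 5 gave a ratio, with a median of -0.88 after serotonin, 0.04 in differentiation and -0.28 after TNF-α. COL1A1, a collagen chain, had levels of 2.78, 2.89, 1.48 and 2.11 and was the 1 of the 5 that fell 2-fold after serotonin, against 4.73% of all gene names. THY1, a surface marker of fibroblasts, had 5.58, 5.46, 4.59 and 5.09. The summed level of the 6 was 849, 900, 600 and 755, and rested mostly on VIM and COL1A2, with levels of 8.89 and 8.55 in pMA. The part of these cell types in the class I values was not tested.

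The 5 gene symbols nearest to B2M, TAP1 and SLA-1 were searched among 4632 other symbols measured on all arrays. The distance was taken between log2 ratios of PIP cells, serotonin and TNF-α, each to pMA, by the brightest probe of each gene. These ratios share the pMA array. Nearest to B2M were IRAK3, INPP5F, TDRD7, XRCC5 and CUEDC1, at distances of 0.06 to 0.11. TAP1 was less crowded, with NKAIN1, MAT1A, LAMA4, NFIL3 and FAR2 at 0.20 to 0.31. Nearest to SLA-1 were ATP1B1, NME4, SLC7A1, INPP4B and SFTPA1 at 0.09 to 0.13. No other member and no gene of the lists was among these 15. The distances to B2M and SLA-1 were below the technical error of a single log2 ratio, 0.22, so the ranking among near genes carries little information. The second probe of SLA-1 had 0.70 after TNF-α beside 0.33, and that of TAP1 had 0.30 in differentiation beside -0.93. The search was not repeated with these probes.

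**Figure D4:**
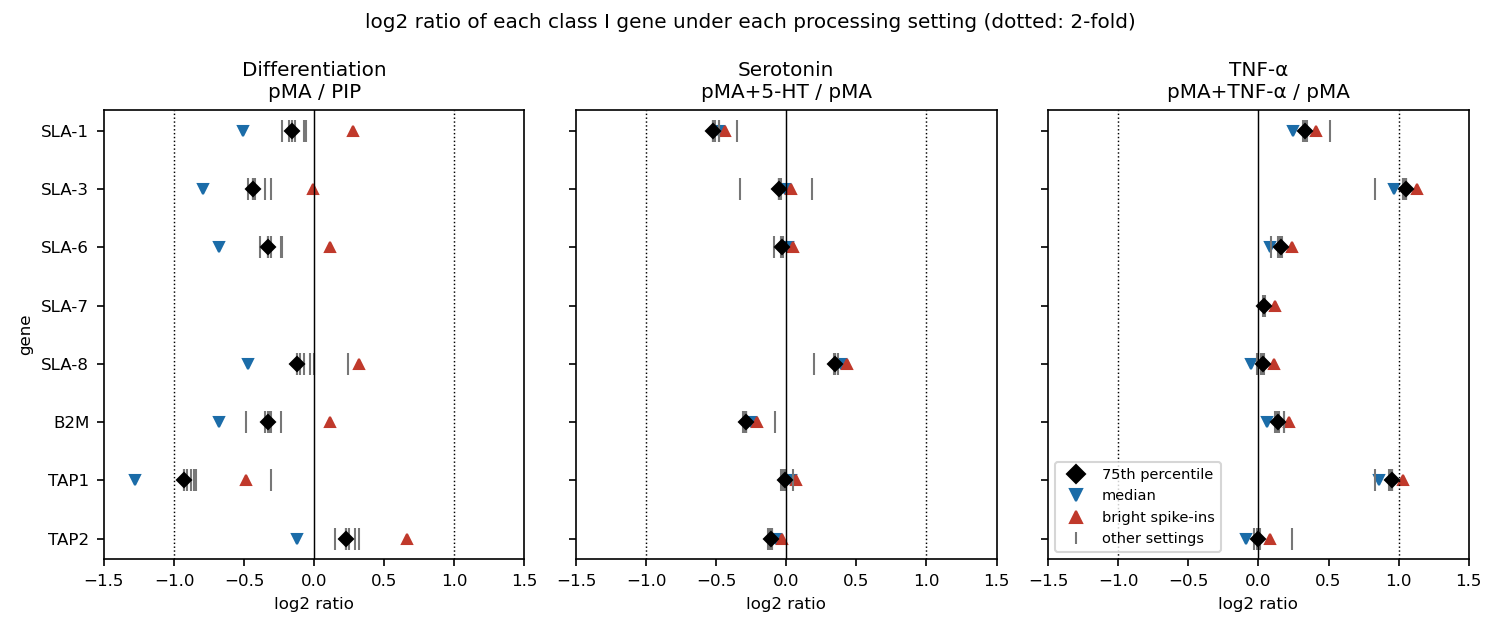
log2 ratio of each member gene in the 3 comparisons under 10 ways of processing the arrays. Black diamonds show the values reported, blue triangles scaling to the median, red triangles scaling to bright spike-in controls, grey ticks the other settings, and dotted lines 2-fold. In differentiation B2M ranges from -0.68 to 0.11 and SLA-1 from -0.51 to 0.28, and after TNF-α SLA-3 ranges from 0.83 to 1.13.

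The direction of a member gene depended on the scaling in differentiation more than after TNF-α. Under the 10 settings SLA-3 lay between 0.83 and 1.13 after TNF-α, TAP1 between 0.83 and 1.03, SLA-1 between 0.25 and 0.51 and B2M between 0.06 and 0.22, all above 0. SLA-8, from -0.05 to 0.11, and TAP2, from -0.09 to 0.24, lay on both sides of 0. In differentiation TAP1 lay between -1.28 and -0.31 and SLA-3 between -0.79 and -0.01, both below 0 throughout. B2M, SLA-1 and SLA-6 were above 0 only with spike-in scaling, SLA-8 with spike-in scaling and with the median over its probes, and TAP2 was below 0 only with scaling to the median, at -0.12. After serotonin SLA-1 lay between -0.52 and -0.35 and B2M between -0.31 and -0.08, below 0 throughout. The B2M value of -0.08, with quantile normalization, was below the technical error. SLA-8 lay between 0.20 and 0.43, above 0 throughout. SLA-3, SLA-6 and TAP1 crossed 0 after serotonin.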

How the data were processed

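Gene expression was read from 4 porcine 1-color (Cy3) arrays, 1 for each condition. The deposited scanner files hold intensities per spot from Agilent Feature Extraction 10.7.3.1, background-corrected by that software (the processed signal). The authors also deposited a value table whose entries are ratios of that intensity to 1 constant per array, and it served as an alternative. A genome build is not given in the sources used here.

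Control spots and outlier spots (12 in PIP cells, 1 in pMA, 3 after serotonin, 4 after TNF-α) were left out. Intensities were taken to log2 after division by the 75th percentile of the array, and spots of 1 probe were averaged. Each gene stands at the value of the probe with the highest level averaged over the arrays. With only 1 of the compared arrays well above background, the ratio is a bound against the faintest signal well above background on the dim array, or the probe itself there if higher. None was given where the bright signal did not exceed that level or both arrays were dim. A 2-fold difference was the call. Named genes were all members, list genes past 2-fold or needed for a role, and the 5 nearest symbols of 3 members. Of the 22 member probes, 19 accessions matched RefSeq names of Sscrofa11.1. Alternatives were scaling to the median or to the 75th percentile of probes well above background on all arrays, quantile normalization, normexp with an offset of 50 (limma 3.58.1, R 4.3.3), another detection flag, no filter, the median over the probes of a gene, the deposited table, and cutoffs of 1.5-fold and 4-fold. Scripts ran in Python 3.11.15 and were tested on simulated data. The planned description of proteins and promoters was not done, as no such sequences were used here. The members, lists and tests were chosen with earlier results of these data known. Some genes of the lists are not reported here by name.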

Additional observations from a re-analysis of the deposited data

How the results depend on the processing

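No paired analysis was possible because each condition has only replicate 1. Scaling to the bright E1A spike-in controls was chosen after seeing the data. After TNF-α, where 1 member passed 2-fold, 2 (SLA-3 and TAP1) passed at a 1.5-fold cutoff or with spike-in scaling, and 0 at a 4-fold cutoff, with the median over probes or with scaling to the median. In differentiation, where 0 passed, 1 (TAP1, lower in pMA) passed at 1.5-fold or with scaling to the median. The member median in differentiation moved from -0.33 to -0.68 with scaling to the median and to 0.11 with spike-in scaling, and the median of all gene names moved with it, from 0.12 to -0.22 and 0.58. The distance between these medians was -0.45, -0.46 and -0.47 in turn. All other counts and medians of the members moved by less than the technical error or 1.5 times. Of 195 alternative values of single genes, 19 moved by more than the technical error. Only 1 value, SLA-3 after TNF-α, was past 2-fold in the reported setting, and it kept its sign. Several values below 2-fold crossed 0, as given above. The share of all gene names past 2-fold, 13.5%, 6.82% and 3.56% in the 3 comparisons, was 4.45%, 3.15% and 1.41% with normexp, 25.1%, 13.4% and 10.9% with the other detection flag, 20.5%, 11.2% and 9.28% with no filter, and 26.5% with spike-in scaling in differentiation. Of the gene names past 2-fold, 73.6% were higher in pMA than in PIP cells, against 34.1% with scaling to the median, 54.7% with quantile normalization, 56.6% with normexp and 94.2% with spike-in scaling. After serotonin this share went from 30.6% to 40.7% with spike-in scaling. After TNF-α it went from 62.2% to 50.2%, 49.3%, 72.3% and 73.8% with the same 4 settings in the order median, quantile, normexp and spike-in. The cause was not tested. Signal over background limited SLA-7 and 1 SLA-6 probe.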

Other observations

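MHC class II, which professional antigen-presenting cells use to display peptides of taken-up proteins, had 10 of 11 listed genes on the array and 9 with a ratio. The median log2 ratio was 0.46 in differentiation, -0.10 after serotonin and -0.06 after TNF-α. SLA-DRA, the alpha chain of the DR molecule, had levels of -3.61 in PIP cells, -3.15 in pMA, -3.91 after serotonin and -3.76 after TNF-α, and CD74, the chaperone of class II, had in the same order -2.08, -2.03, -1.88 and -2.16. CTSS, the protease that trims CD74, had -0.88, -0.41, 0.18 and 0.69 and was the 1 gene of the list past 2-fold. It rose 2.15-fold after TNF-α by its brightest probe, where 2.21% of all gene names rose 2-fold. All 10 of its probes had log2 ratios of 0.58 or more there. With normexp or the median over probes, no gene of the list passed 2-fold after TNF-α. After scaling to the bright spike-in controls 3 of the 9 genes rose 2-fold in differentiation. With this scaling 26.5% of all gene names passed 2-fold there, and 94.2% of these were higher in pMA.

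Receptors for TNF-α and interferons were well above background on all arrays in all 6 listed genes. None differed 2-fold, against 13.5% of all gene names in differentiation, 6.82% after serotonin and 3.56% after TNF-α. IFNGR2, the signalling chain of the interferon-γ receptor, had levels of 2.95 in PIP cells, 2.56 in pMA, 3.19 after serotonin and 3.45 after TNF-α, log2 ratios of 0.62 after serotonin and 0.89 after TNF-α.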
